A study of Mus musculus with 6 samples.

Results

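Transcription factors that mark position in the embryo, other than those of the Hox and Dlx families, were described in mouse embryonic fibroblasts (MEFs) with and without the histone variant H2AX. The 44 members were taken by gene symbol from a given list of homeobox, paired-box, T-box, LIM, TALE, basic helix-loop-helix and forkhead factors, and all 44 were measured, of 19938 genes in all. The cells were H2AX KO MEFs (genotype H2A.X Knockout, 3 arrays) and wild-type MEFs (genotype H2AX. WT, 3 arrays), both grown in the same serum medium without further treatment. RNA was read on Affymetrix Gene ST arrays, on which several short probes spread over a gene are combined into 1 probe set, and the values are log2 expression values. A log2 difference of 1 is a fold-change of 2, and every difference below is H2AX KO minus wild-type. The sources used here do not say how many embryos or lines stand behind each genotype, so the effect of the deletion and a difference between the lines cannot be told apart. The study calls the numbered arrays of a genotype independent replicates without saying whether they were separate embryos, lines or cultures, and the p-values take in only the spread between them. Embryo age and mouse strain were not stated in the labels.

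Fibroblasts keep a memory of the place in the body from which they came, held in part as the set of patterning transcription factors that stays switched on in culture. In the embryo, factors of the Alx, Barx, Lhx and Msx groups pattern the mesenchyme of the skull, jaws and face, much of which comes from the neural crest. Factors such as Pitx1, Shox2 and the T-box genes lay out the limb bud, and Pax, Meox and Osr genes mark the somites and the mesoderm of the trunk. A MEF culture is usually made from the embryo's body after the head and the internal organs are taken off, and can hold cells of several origins. In bulk RNA, fewer cells of a type and less RNA per cell cannot be told apart. Each member was placed in 1 region in which it is known to act, although many act in more than 1. Six2, Emx2 and Lhx9, for example, also act in the kidney, the urogenital tract or the gonad. The list of members and the placement were made with earlier results of these data known.

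The transcript of the deleted gene, H2ax, was lower on each H2AX KO array, with a log2 difference of -1.34 (standard error 0.07, adjusted p = 5.8e-07 from limma). It averaged 7.71 ± 0.05 in H2AX KO and 9.05 ± 0.12 in wild-type cells (mean ± SD over 3 arrays of each), so in H2AX KO cells its probe set still read well above the background level of 5.78 described next. The labels do not say which of its probes the deletion covers. The Y-linked genes Uty, Eif2s3y and Kdm5d were also lower in H2AX KO cells. Their means were 4.35, 4.05 and 4.92 there, under 5.78, against 8.08, 8.09 and 7.80 in wild-type cells. Y-linked expression thus differs with genotype, and its part in the members' differences cannot be told apart from that of the deletion. Uty lay between 4.27 and 4.41 on the H2AX KO arrays and between 7.97 and 8.19 on the wild-type arrays, and Xist, which marks an inactive X chromosome, had means of 4.56 in H2AX KO and 4.53 in wild-type cells. As a measure of the array's background, the means of 1027 olfactory receptor genes over the 6 arrays were used, whose 95th percentile was 5.78. A genotype's mean at or under this level is called within the background range. Of 12 fibroblast markers, 5 were higher, 5 lower and 2 not called, and all but Fap were above the background range in both genotypes. Several moved by more than 2-fold with the members. Thy1, a surface marker, averaged 10.60 in H2AX KO and 6.57 in wild-type cells (16.3-fold higher) and Pdgfrb, a growth factor receptor, 10.50 in H2AX KO and 8.80 in wild-type cells (3.26-fold higher). Fap, a surface protease, averaged 4.45 in H2AX KO cells, within the background range, and 7.02 in wild-type cells (5.92-fold lower), and Dcn, a matrix proteoglycan, 9.57 in H2AX KO and 11.72 in wild-type cells (4.42-fold lower). The part of these shifts in the members' differences was not tested. Of 8 epithelial markers none passed the test and 6 were within the background range in both genotypes, Epcam and Cdh1 among them, whereas Krt8 was above it in both (6.82 in H2AX KO, 6.98 in wild-type) and Krt14 in H2AX KO cells. All 6 endothelial markers were within it and 2 were lower. Of 7 leukocyte markers 5 were within it, Ptprc among them, and the other two were above it in both genotypes, with Cd68 higher (6.90 in H2AX KO, 6.61 in wild-type) and Cd14 lower (6.39 in H2AX KO, 6.78 in wild-type). Of 6 neural and glial markers 3 were higher and 1 lower (66.7% called, beside 33.4% of all genes). Higher were Map2 (7.79 in H2AX KO, 6.07 in wild-type), Tubb3 (6.22 and 5.39) and Sox2 (6.96 and 6.73), and Nes was lower (8.16 and 8.80). The wild-type mean of Tubb3 was within the background range. Acan, of 6 cartilage and bone markers, and Nanog, of 4 pluripotency markers, were higher, with Acan within the background range in both genotypes. The labels give no batch.

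Among the 44 members, limma called 22 higher and 11 lower in H2AX KO MEFs at an adjusted p under 0.05 over all genes, and left 11 without a call. Together 33 members, 75%, were called, where 33.4% of all genes were called. The members were chosen with earlier results of these data known, so this share and those below cannot stand for positional factors in general. Of 79 other patterning factors, 35.4% were called and 19.0% also passed a fold-change of 2. In each direction the background was 18.4% of genes higher and 15.0% lower, beside 50% and 25% of the members. Many genes were not above the array's background. Of the 12016 genes that were above it in at least 1 genotype, 50.4% were called, beside 33 of 37 such members (89.2%). This filter also keeps genes above background in only 1 genotype, which favours a difference, so part of such a contrast is built in. Among the members 7 were above it in H2AX KO cells only and 2 in wild-type cells only, beside 383 and 390 of the 12016 genes. At a fold-change over 2 as well, 8 members (18.2%) were higher, beside 2.12% of all genes, and 3 (6.82%) were lower, beside 3.18%, so that 11 members (25%) passed, beside 5.30% of all genes. Among those above background in at least 1 genotype, 29.7% of the members and 8.67% of the genes passed. Of the 12 fibroblast markers, 83.3% were called and 33.3% also passed a fold-change of 2. At a fold-change over 4 there were 5 members (11.4%), beside 1.59% of all genes. The member just inside a fold-change of 2 was Pax3 at 2.11, and those just outside it were Irx3 at 1.96, Prrx2 at 1.95 and Lhx6 at 1.93. The median size of the difference, whatever its sign, was 0.67 for the members and 0.13 for all genes, and the median signed difference was 0.25 for the members and 0.02 for all genes. The arrays of the genotypes did not overlap for 35 members, and for 44.8% of all genes. For 30 of the 33 called members the gap between the genotypes was wider than the widest range within a genotype, and the exceptions were Otx1, Tbx2 and Foxf1. Called members were selected by a small p, which favours a wide gap, and the share over all genes was not computed. Euclidean distances over the 44 members were 8.35 to 8.73 log2 units between an H2AX KO and a wild-type array, against 0.83 to 1.19 within a genotype. The genotypes also stood apart over all probe sets, at 93.4 to 101.5 between them and 33.2 to 47.7 within a genotype.

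**Figure D1:**
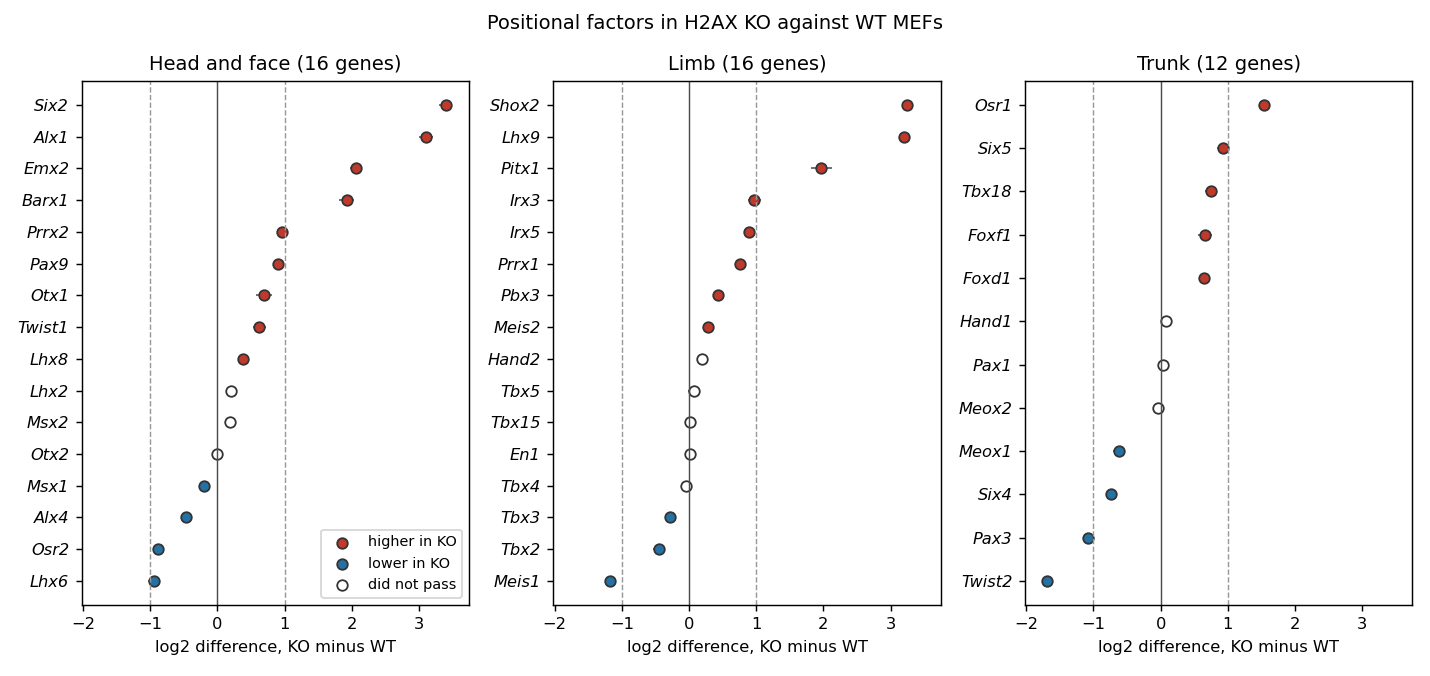
The x axis is the log2 difference, H2AX KO minus wild-type, and each of the 44 members has a row in the panel for head and face, limb or trunk. Points are estimates and bars the standard error from limma, red points are higher, blue points are lower and open points did not pass, and the dashed lines stand at a 2-fold change. The 4 points farthest to the right are Six2, Shox2, Lhx9 and Alx1, between 3.11 and 3.39.

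By region, 9 of 16 head and face factors were higher and 4 lower, 8 of 16 limb factors were higher and 3 lower, and 5 of 12 trunk factors were higher and 4 lower. The median difference was 0.50 for head and face, 0.24 for limb and 0.06 for trunk, beside 0.02 for all genes. The share called in either direction was 81.25% in head and face, 68.75% in limb and 75% in trunk, beside 33.4% of all genes. Changes over 2-fold were 4 rises in head and face, 3 rises and 1 fall in limb, and 1 rise and 2 falls in trunk. That is 25% of each region, beside 5.30% of all genes. Whether the regions differ from each other was not tested. Among the members, 7 were within the background range in both genotypes, namely Otx2, Lhx2, Tbx4, Tbx5, Hand2, Pax1 and Meox2, and none of these passed the test. Wild-type cells alone were within it for Six2, Lhx9, Pitx1, Pax9, Lhx8, Msx2 and Hand1, and H2AX KO cells alone for Alx4 and Meox1. Low array values are compressed, so folds against this range can be understated.

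**Figure D2:**
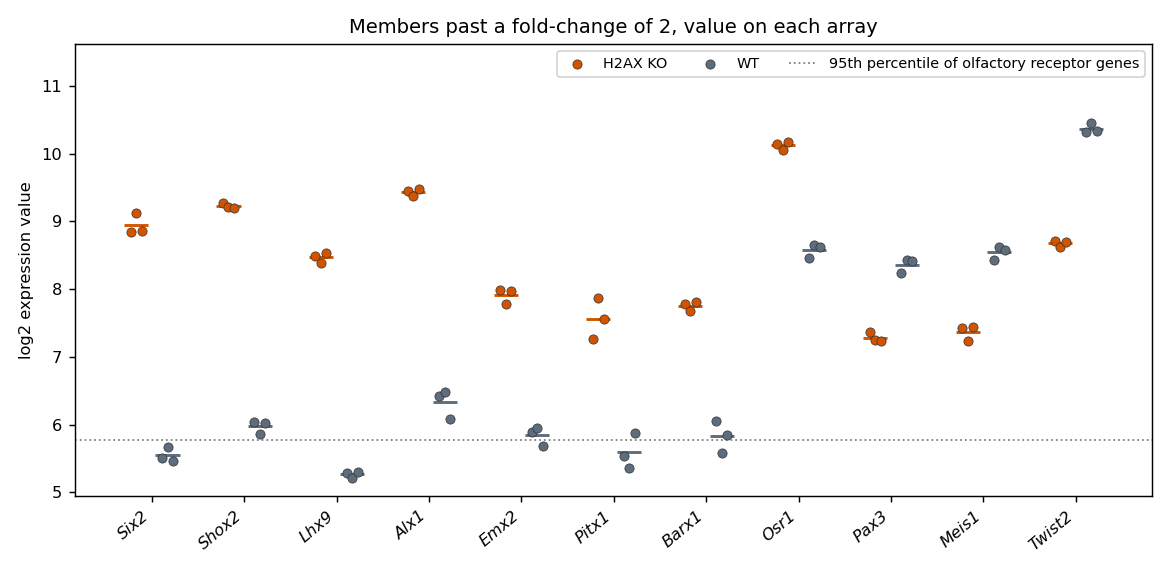
Log2 expression value on each of the 6 arrays for the 11 members past a fold-change of 2, with 1 point per array and a bar at the mean of each genotype, H2AX KO in orange and wild-type in grey. The dotted line at 5.78 is the 95th percentile of olfactory receptor genes. The genotypes do not overlap for any of the 11 genes, nor for 44.8% of all genes. The 11 were picked by a small p and a large fold-change on these same arrays, which favours this. The wild-type points of Six2 and Lhx9 lie under the dotted line.

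Of these 11 genes, 7 have a promoter window in the RefSeq table, and in 5 of these it lies at the start of the gene. Their sequences are shown because they stand before genes with large rises and before Twist2, the largest fall, and because they differ in CG dinucleotides, in which the promoters of many patterning genes are rich. They are the 250 bases before the RefSeq gene start in GRCm38.p6, written 5′ to 3′ on the gene's strand, with CG dinucleotides in capitals. Positions are chr17:85688255-85688504 (-) for Six2, chr3:66981772-66982021 (-) for Shox2, chr19:59458440-59458689 (+) for Emx2, chr13:48662786-48663035 (+) for Barx1 and chr1:91801211-91801460 (+) for Twist2, of which the first 4 rose and Twist2 fell.
Six2: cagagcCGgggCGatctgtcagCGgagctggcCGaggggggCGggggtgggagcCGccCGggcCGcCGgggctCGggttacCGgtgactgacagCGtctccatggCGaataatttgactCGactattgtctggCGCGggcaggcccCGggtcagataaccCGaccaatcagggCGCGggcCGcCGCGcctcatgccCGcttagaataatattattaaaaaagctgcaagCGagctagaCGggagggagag
Shox2: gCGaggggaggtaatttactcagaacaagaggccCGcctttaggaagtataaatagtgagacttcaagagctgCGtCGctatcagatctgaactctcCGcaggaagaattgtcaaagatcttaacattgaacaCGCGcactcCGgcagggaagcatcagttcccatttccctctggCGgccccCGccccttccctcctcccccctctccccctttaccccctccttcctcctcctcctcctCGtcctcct
Emx2: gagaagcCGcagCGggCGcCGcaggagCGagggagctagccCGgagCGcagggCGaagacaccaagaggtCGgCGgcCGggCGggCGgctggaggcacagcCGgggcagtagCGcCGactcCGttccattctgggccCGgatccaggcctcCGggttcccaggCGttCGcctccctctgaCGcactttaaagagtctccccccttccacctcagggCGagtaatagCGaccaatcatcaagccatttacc
Barx1: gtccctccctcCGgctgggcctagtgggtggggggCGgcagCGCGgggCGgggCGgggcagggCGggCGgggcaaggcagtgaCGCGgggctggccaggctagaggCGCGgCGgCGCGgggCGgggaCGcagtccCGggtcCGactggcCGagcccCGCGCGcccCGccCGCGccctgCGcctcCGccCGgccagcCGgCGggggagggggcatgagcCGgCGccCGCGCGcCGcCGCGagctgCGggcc
Twist2: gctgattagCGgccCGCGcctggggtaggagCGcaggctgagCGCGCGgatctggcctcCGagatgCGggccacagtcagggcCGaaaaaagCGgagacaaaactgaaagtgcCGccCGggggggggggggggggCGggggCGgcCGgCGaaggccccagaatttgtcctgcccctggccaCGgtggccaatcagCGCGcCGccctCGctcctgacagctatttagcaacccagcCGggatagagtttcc
The stretch held 26 CG dinucleotides for Six2, 11 for Shox2, 24 for Emx2, 40 for Barx1 and 23 for Twist2. Six2 and Shox2, whose rises were of like size (3.39 and 3.25 on the log2 scale), stood apart in this count, and Twist2, which fell, lay between Shox2 and Emx2. These are 5 promoters only, and whether the count goes with the change was not tested.

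Among head and face factors, Six2 and Alx1 had the largest differences. Six2, a homeobox factor of head mesenchyme and of kidney progenitors, had log2 values of 8.85, 9.13 and 8.86 on the H2AX KO arrays, against 5.51, 5.68 and 5.47 on the wild-type arrays. All 3 wild-type values lay within the range of olfactory receptor genes, and the difference was 3.39 (standard error 0.09, adjusted p = 4.6e-09), a fold-change of 10.5. Alx1, which shapes the mesenchyme around the eyes and nose, had values of 9.45, 9.38 and 9.47 on the H2AX KO arrays, against 6.42, 6.48 and 6.09 on the wild-type arrays. The lowest H2AX KO array was 2.89 above the highest wild-type array, and the difference was 3.11 (standard error 0.10, adjusted p = 1.3e-08), a fold-change of 8.61. Emx2, a factor of the dorsal forebrain and the urogenital tract, had values of 7.98, 7.77 and 7.96 on the H2AX KO arrays, against 5.89, 5.95 and 5.68 on the wild-type arrays. The genotypes did not overlap, and it rose by 2.07 (standard error 0.09, adjusted p = 8.9e-08), a fold-change of 4.19. Barx1, a marker of jaw mesenchyme where molars form, had values of 7.78, 7.67 and 7.80 on the H2AX KO arrays, against 6.05, 5.59 and 5.85 on the wild-type arrays. Its H2AX KO arrays were all higher and closer to each other (SD 0.07) than its wild-type arrays (SD 0.23), with a difference of 1.92 (standard error 0.11, adjusted p = 5.9e-07) and a fold-change of 3.79.

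Smaller rises in this region were those of Prrx2, a factor of facial and limb mesenchyme, at 0.97, of Pax9, which acts in teeth, palate and pharyngeal pouches, at 0.89, of the forebrain and midbrain factor Otx1 at 0.69, of Twist1, which keeps skull sutures open, at 0.63, and of Lhx8, a factor of upper and lower jaw mesenchyme, at 0.38, with adjusted p between 2.0e-06 and 0.0014. With the methods' one-way ANOVA, which does not moderate the variance, Otx1 had an adjusted p of 0.053. Facial factors also fell. Lhx6, which is expressed with Lhx8 in the jaws, had values of 7.09, 7.36 and 7.40 on the H2AX KO arrays, against 8.24, 8.28 and 8.17 on the wild-type arrays. The genotypes did not overlap, and the difference was -0.95 (standard error 0.09, adjusted p = 2.3e-05). Osr2, needed for growth of the palate, had values of 7.78, 8.02 and 7.94 on the H2AX KO arrays, against 8.66, 8.83 and 8.89 on the wild-type arrays, a difference of -0.88 (standard error 0.09, adjusted p = 3.3e-05). Alx4, a relative of Alx1 that also acts in the limb, had a difference of -0.46 (adjusted p = 0.0014), and Msx1, a factor of tooth and palate mesenchyme, one of -0.19 (adjusted p = 0.026). The call of Msx1 is the least firm of the 33, since its adjusted p was 0.053 to 0.10 without H2AX KO replicate 1 or 3 or any single wild-type replicate, and 0.082 with the replicate number as a block. The members of this region that did not pass were Msx2, Lhx2 and Otx2, with differences of 0.19, 0.21 and -0.0025.

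In the limb group, Shox2 and Lhx9 were near background in wild-type cells and well above it in H2AX KO cells. Shox2, which builds the proximal limb skeleton, had log2 values of 9.27, 9.21 and 9.19 on the H2AX KO arrays, against 6.04, 5.87 and 6.02 on the wild-type arrays. Every H2AX KO array was higher than every wild-type array, by a difference in means of 3.25 (standard error 0.07, adjusted p = 9.9e-10), a fold-change of 9.50. Lhx9, a factor of limb bud mesenchyme and of the gonad, had values of 8.50, 8.39 and 8.53 on the H2AX KO arrays, against 5.29, 5.21 and 5.30 on the wild-type arrays. Its wild-type arrays all lay under the background level, and the difference was 3.20 (standard error 0.07, adjusted p = 8.4e-10), a fold-change of 9.20. Pitx1, the factor that gives the hindlimb its identity and that is also made in the lower jaw, had values of 7.26, 7.87 and 7.55 on the H2AX KO arrays, against 5.54, 5.35 and 5.88 on the wild-type arrays. Its arrays were the most spread of the 44 members within a genotype, with a range of 0.60 among H2AX KO arrays, but the lowest of them was 1.38 above the highest wild-type array. Pitx1 rose by 1.97 (standard error 0.16, adjusted p = 9.6e-06), a fold-change of 3.92.

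Tbx4 and Tbx5, the T-box factors of the hindlimb and of the forelimb, did not pass the test. Tbx4 had values of 4.92, 5.05 and 5.01 on the H2AX KO arrays, against 5.09, 5.03 and 5.01 on the wild-type arrays, and Tbx5 had values of 4.39, 4.54 and 4.36 on the H2AX KO arrays, against 4.30, 4.27 and 4.51 on the wild-type arrays. For both the genotypes overlapped and all values were within the background range, with differences of -0.05 (adjusted p = 0.62) and 0.07 (adjusted p = 0.59). Hand2, a factor of the posterior limb bud, was also within the background range in both genotypes (difference 0.20, adjusted p = 0.057). En1, a marker of ventral limb ectoderm and of a lineage of dermal fibroblasts, and Tbx15, which acts in the limb skeleton and the dermis, lay near 8 on all 6 arrays. En1 had values of 8.28, 8.38 and 8.29 on the H2AX KO arrays, against 8.32, 8.34 and 8.26 on the wild-type arrays, and Tbx15 had values of 8.21, 7.96 and 8.07 on the H2AX KO arrays, against 8.03, 8.08 and 8.09 on the wild-type arrays. The genotypes overlapped for both, and the adjusted p was 0.93 for En1 and 0.93 for Tbx15.

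The TALE homeobox factors, which pair with Hox proteins on DNA or pattern the limb themselves, included 4 rises and 1 fall among 5 members. Among all 44 members 22 rose and 11 fell, and 18.4% of all genes were higher and 15.0% lower. Irx3 and Irx5, which act together in early limb patterning, rose by 0.97 (standard error 0.10, adjusted p = 3.3e-05) and by 0.89 (standard error 0.07, adjusted p = 9.0e-06). Pbx3 and Meis2, partners of Hox proteins, rose by 0.43 (adjusted p = 0.0018) and 0.28 (adjusted p = 0.0062). Meis1, a partner of the same kind that marks the proximal limb, was the only limb factor to fall over 2-fold, with values of 7.43, 7.24 and 7.44 on the H2AX KO arrays, against 8.43, 8.62 and 8.57 on the wild-type arrays. Its H2AX KO arrays were all lower, and the difference was -1.17 (standard error 0.08, adjusted p = 2.7e-06), a fold-change of 2.25. Prrx1, a general factor of limb and facial mesenchyme, had values of 12.22, 12.22 and 12.22 on the H2AX KO arrays, against 11.40, 11.51 and 11.47 on the wild-type arrays. The H2AX KO arrays were nearly alike and all higher, and it rose by 0.76 (standard error 0.06, adjusted p = 7.4e-06). Tbx2 and Tbx3, T-box repressors at the margins of the limb bud, fell by 0.45 and 0.28 on the log2 scale (adjusted p = 0.0015 and 0.0077).

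Trunk factors included the largest fall among the members. Twist2, a basic helix-loop-helix factor of the dermis, had log2 values of 8.71, 8.62 and 8.70 on the H2AX KO arrays, against 10.31, 10.45 and 10.33 on the wild-type arrays. All 3 H2AX KO arrays were lower than any wild-type array, and the difference was -1.69 (standard error 0.07, adjusted p = 4.8e-08), a fold-change of 3.23. Pax3, which marks the dermomyotome of the somite and the neural crest, had values of 7.37, 7.24 and 7.24 on the H2AX KO arrays, against 8.23, 8.43 and 8.42 on the wild-type arrays. The genotypes again did not overlap, with a difference of -1.07 (standard error 0.08, adjusted p = 2.9e-06), a fold-change of 2.11. Six4, which works with Pax3 in muscle progenitors, had values of 8.32, 8.25 and 8.34 on the H2AX KO arrays, against 8.999, 9.05 and 9.09 on the wild-type arrays, a difference of -0.74 (standard error 0.06, adjusted p = 1.0e-05). Meox1, a somite factor, had a difference of -0.63 (adjusted p = 1.6e-04) with an H2AX KO mean of 5.59, within the background range. Among 7 skeletal muscle markers, only Chrna1, an acetylcholine receptor subunit of muscle, was called, and it fell by 3.28 on the log2 scale. Without Chrna1, the summed level of the other 6 was 347 to 371 linear units on the H2AX KO arrays and 326 to 362 on the wild-type arrays, which overlap, and Myod1, Myf5, Myf6, Myog, Des and Actc1 did not pass the test.

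The rise over 2-fold in the trunk group was that of Osr1, a factor of intermediate and lateral mesoderm. Osr1 had values of 10.14, 10.06 and 10.17 on the H2AX KO arrays, against 8.46, 8.65 and 8.62 on the wild-type arrays. Its H2AX KO arrays were all higher, and the difference was 1.55 (standard error 0.07, adjusted p = 1.6e-07), a fold-change of 2.92. Six5, a homeobox factor encoded beside Dmpk, rose by 0.93 (standard error 0.08, adjusted p = 1.3e-05) and Tbx18, which marks the anterior part of each somite and the outer layer of the heart, rose by 0.75 (standard error 0.08, adjusted p = 6.6e-05). Foxd1, a factor of kidney stroma, rose by 0.64 (adjusted p = 1.1e-04). Foxf1, a factor of the mesoderm around the gut, was the only member with more than 1 probe set. Its brighter probe set rose by 0.66 (adjusted p = 8.9e-04), and the other had means of 7.13 in H2AX KO and 6.21 in wild-type cells, a difference of 0.92 in the same direction. Pax1, a factor of the sclerotome, Meox2, a somite factor, and Hand1, a factor of lateral mesoderm and heart, did not pass the test, with differences of 0.03, -0.04 and 0.09, and the genotypes overlapped for each.

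**Figure D3:**
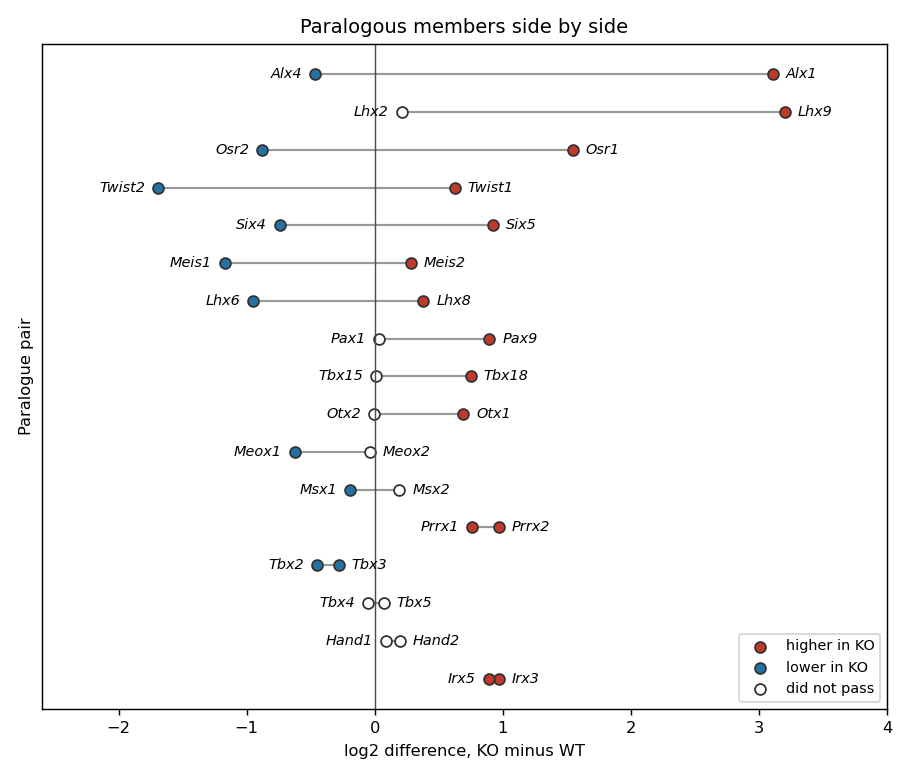
The x axis is the log2 difference, H2AX KO minus wild-type, and the rows are the 17 pairs of close relatives among the members, ordered by the distance between the points. Red points are higher, blue points are lower and open points did not pass. In 6 rows a red and a blue point stand on opposite sides of 0, and in 3 rows both points are filled with the same colour.

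The members hold 17 pairs of close relatives, which often share DNA binding properties and part of their expression domain. In 6 pairs 1 gene was higher and the other lower in H2AX KO MEFs, in 2 pairs both were higher, in 1 pair both were lower, in 6 pairs only 1 gene passed, and in 2 pairs neither passed. The 6 pairs with opposite signs were Alx1 and Alx4 (3.11 and -0.46), Osr1 and Osr2 (1.55 and -0.88), Twist1 and Twist2 (0.63 and -1.69), Six5 and Six4 (0.93 and -0.74), Meis2 and Meis1 (0.28 and -1.17), and Lhx8 and Lhx6 (0.38 and -0.95). Prrx1 and Prrx2 rose together, as did Irx3 and Irx5, and Tbx2 and Tbx3 both fell. The difference between the genes of a pair was not tested. Among all 44 members 50% were higher and 25% lower. Whether 6 opposite pairs exceed the number that these shares give was not tested. Of the pairs with 1 called gene, Lhx9 and Lhx2 were the farthest apart, at 3.20 and 0.21.

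Some members are neighbours on their chromosome. Irx3 and Irx5 are next to each other on chromosome 8 with no protein-coding gene between them, as are Tbx2 and Tbx4 on chromosome 11 and Tbx3 and Tbx5 on chromosome 5. Both Irx genes rose, whereas Tbx2 and Tbx3 fell next to Tbx4 and Tbx5, which were within the background range on all arrays. For the 11 members past a fold-change of 2, the nearest measured protein-coding gene on each side was also read. Of these 22 neighbours, 4 were called higher and 7 lower, with no call for 11, which is 50% called beside 33.4% of all genes, and none passed a fold-change of 2. Their differences ran from -0.59 to 0.84. Next to Six2, the related factor Six3 had means of 5.78 in H2AX KO and 5.67 in wild-type cells (difference 0.11, adjusted p = 0.26), and Srbd1 on the other side rose by 0.84 (adjusted p = 3.4e-05). Next to Alx1, Rassf9 and Lrriq1 did not pass, with differences of -0.08 and -0.07, and next to Lhx9, Nek7 and Dennd1b did not pass, with differences of 0.14 and -0.04. Called in the member's direction were also Pdzd8 and Rab11fip2 next to Emx2 (0.55 and 0.20) and Rsrc1 next to Shox2 (0.64). So were Spred2, Sgpp2 and Asb1 next to Meis1, Pax3 and Twist2 (-0.28, -0.40 and -0.39). Called against it were Ptpdc1 and Phf2 next to Barx1 (-0.59 and -0.28), Macroh2a1 next to Pitx1 (-0.56) and Ptx3 next to Shox2 (-0.20).

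Relatives of the members and other patterning factors were read as a wider list, of which 79 of 88 genes were measured. Of these, 16 were called higher and 12 lower, with no call for 51, which is 35.4% called beside 33.4% of all genes. At a fold-change over 2, 7 were higher and 8 lower, or 19.0% beside 5.30%. Within the background range in both genotypes were 31 of the 79. The largest rise was that of Tfap2a, a factor of the neural crest and of facial ectoderm, with values of 9.18, 9.19 and 9.02 on the H2AX KO arrays, against 5.36, 4.75 and 5.08 on the wild-type arrays. The wild-type arrays lay under the background level, and the difference was 4.07 (standard error 0.13, adjusted p = 1.5e-08), a fold-change of 16.8. Its relative Tfap2b, also a neural crest factor, had values of 8.19, 8.16 and 8.12 on the H2AX KO arrays, against 5.02, 4.93 and 4.99 on the wild-type arrays, a difference of 3.17 (standard error 0.06, adjusted p = 6.3e-10). Scx, the factor of tendon progenitors, rose by 2.77 (standard error 0.12, adjusted p = 1.1e-07), Mab21l2, a gene of eye and facial development, by 2.29 (standard error 0.11, adjusted p = 2.7e-07) and the forkhead factor Foxp1 by 1.94 (standard error 0.07, adjusted p = 2.0e-08). The largest fall was that of Zic1, a zinc finger factor of the dorsal neural tube and dorsal somite, with values of 5.36, 5.43 and 5.44 on the H2AX KO arrays, against 8.81, 8.65 and 8.58 on the wild-type arrays. It was within the background range on all 3 H2AX KO arrays, and the difference was -3.27 (standard error 0.07, adjusted p = 1.3e-09). Isl1, a factor of hindlimb field, heart and motor neurons, had a difference of -2.56 (standard error 0.12, adjusted p = 1.5e-07), and Ebf2, a factor of brown fat and somite derivatives, one of -2.42 (standard error 0.07, adjusted p = 5.7e-09). Hic1, a factor of mesenchymal progenitors, and Gata6, a factor of heart and gut mesoderm, followed at -1.78 and -1.76.

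**Figure D4:**
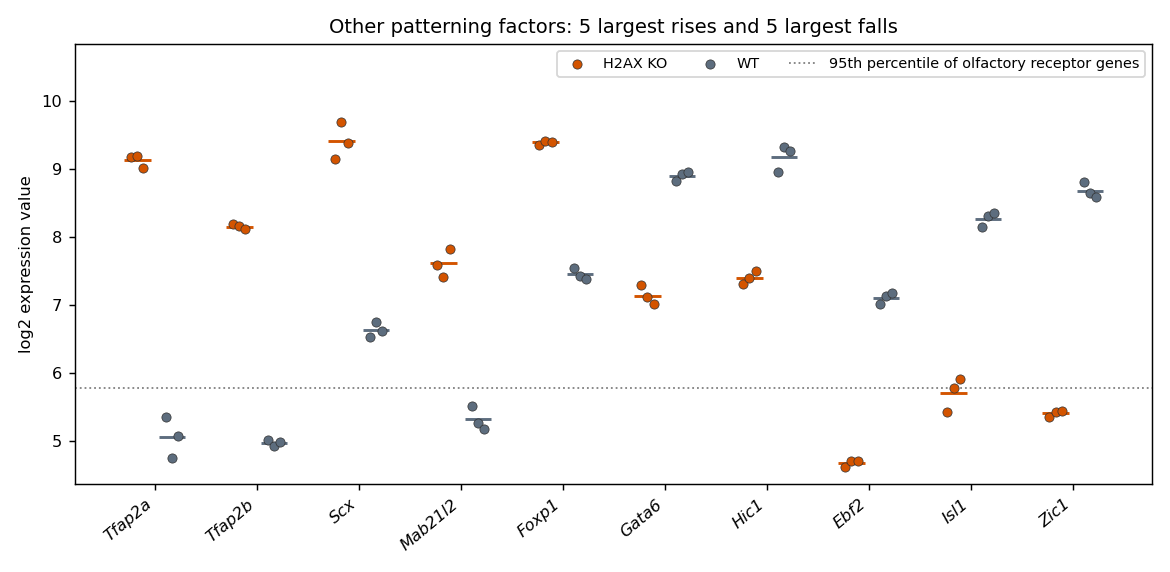
Log2 expression value on each of the 6 arrays for the 5 largest rises and the 5 largest falls among 79 other patterning factors, with 1 point per array and a bar at the mean of each genotype, H2AX KO in orange and wild-type in grey. The dotted line at 5.78 is the 95th percentile of olfactory receptor genes. Tfap2a, Tfap2b and Mab21l2 lie under the line on the wild-type arrays, and Zic1 and Ebf2 on the H2AX KO arrays.

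Windows of 300 bases around the start site, 250 before it and 50 after it, were found in the RefSeq table of GRCm38.p6 for 28 of the 44 members, with 35 windows in all. Their median count of CG dinucleotides was 15.25 per gene, against 13 for 17491 protein-coding genes. It was 15 for 15 higher members, 16 for 5 lower members and 15 for 8 that did not pass, with a range from 4 in Lhx8 to 50 in Barx1, both of which rose. The homeodomain core TAATTA, read on both strands, was in 6 of the 35 windows (17.1%), those of Emx2, Hand2, Msx2, Prrx1 and 2 of Otx2, and in 4.53% of the windows of protein-coding genes. The E-box CANNTG was in 45.7% of the members' windows and 69.0% of all windows of protein-coding genes, TATAAA in 20% and 12.6%, the T-box core AGGTGT in 5.71% and 12.7%, and TGATTNAT, a site of Hox proteins with their TALE partners, in none and 2.75%. In the members' windows no 2 of these motifs shared bases. These are matches of letters and were not tested.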

How the data were processed

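RNA from 3 H2AX KO and 3 wild-type MEF arrays was analysed, grouped by the submitters' labels. The authors used Expression Console to make CHP files and normalized the CEL scans in Partek (version 6.6), by a method that the sources do not name. The table deposited holds 1 log2 value per array for each of 35556 probe sets, and its array medians lay from 6.06 to 6.12. Its identifiers and the annotation used belong to version 1.0 of the Gene ST design, although the methods give 2.0.

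Of the probe sets, 21789 carried 1 gene symbol and were used, with symbols updated through RefSeq (GRCm38.p6) for the 21698 with a match, 1621 carried several and 12146 were not listed. The probe set with the highest mean stood for a gene, which gave 19938 genes. H2AX KO was compared with wild-type with limma (version 3.58.1, R version 4.3.3), lmFit and eBayes without covariates, Benjamini-Hochberg over all genes, and was tested on simulated data. The threshold was an adjusted p of 0.05, and large changes also had a fold-change over 2. Precision is limited by there being 3 arrays per genotype, with which an exact two-sided permutation test reaches 0.10 at best. The members, their regions and the lists were chosen with earlier results of these data known. Named were all members, with values per array mainly for those past a fold-change of 2, the 5 largest rises and falls among other patterning factors, and neighbours of members. Other values per array and marker genes were chosen after they were seen. No 2 arrays of a genotype shared more than 0.087% of values. The fit did not pair arrays by replicate number, and no array's deviations correlated best with those of the same number.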

Additional observations from a re-analysis of the deposited data

How the results depend on the processing

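Each member was refitted under 14 alternatives: the replicate block, the methods' one-way ANOVA, a trended and robust variance prior, quantile normalization, median centring, the mean of probe sets, array weights, without the dimmest 50% of genes, and without each array. Of 33 called members, 31 kept their direction and call in each alternative in which they were tested, with adjusted p up to 0.040, and the exceptions were Msx1 and Otx1. The 11 past a fold-change of 2 had adjusted p up to 0.010. Without the dimmest 50% of genes, 16 members were not tested, and the 28 tested kept their calls. Of these 18 were higher and 8 lower. In head and face 2 factors were lower in place of 4, since Alx4 and Msx1 were left out. At a fold-change over 1.5, 19 members were higher and 7 lower, as were 1130 and 1244 of all genes. Without each array in turn, 22 to 23 members were higher and 10 to 11 lower, and 8 to 9 were higher and 3 to 4 lower at a fold-change over 2.

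Deviations of same-numbered arrays from their genotype's mean correlated at -0.29, -0.24 and 0.08, and no array correlated best with its own number. Deviations from a mean of 3 arrays are tied to each other, so these correlations cannot show whether same-numbered arrays were prepared together. With the replicate block, 22 members were higher and 10 lower, the call of Msx1 was lost and no other member's call changed. Lhx2 was called with array weights, where the weight of H2AX KO replicate 3 was 6.17 and the other weights were under 1.6 (adjusted p = 0.0021), and without H2AX KO replicate 1 (adjusted p = 0.037). Hand2 was called with array weights (adjusted p = 0.0020), with median centring (adjusted p = 0.0498) and without H2AX KO replicate 2 (adjusted p = 0.042) or wild-type replicate 3 (adjusted p = 0.038). Members near 0 changed sign without a call. Otx2 was at 0.011 after quantile normalization, at 0.042 with array weights and between -0.028 and 0.023 without each array. En1 was at -0.012, at -0.018 and between -0.023 and 0.031 in the same order. Without each array, Tbx15 lay between -0.053 and 0.073, Pax1 between -0.015 and 0.093 and Meox2 between -0.073 and 0.00078. The cause of these changes was not tested.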
